A study of Mus musculus with 13 samples.

Results

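The NRF2 antioxidant genes described here are 10 genes of the oxidative stress response: the transcription factor gene Nfe2l2, its inhibitor Keap1, and the target genes Hmox1, Nqo1, Gclc, Gclm, Txnrd1, Srxn1, Gsr and Prdx1. They were chosen by gene symbol, and all 10 were found among the 13222 genes listed for these cells. Bulk RNA of 4T1-Thy1.1 cells, a mouse mammary carcinoma line that carries a Thy1.1 transgene, was sequenced in 13 libraries to ask how the cytokine IL-17A alters the response to doxorubicin (DOX). DOX is an anthracycline that damages DNA and whose quinone ring can cycle with oxygen. Cells were left untreated (control, n = 3) or were given 200 ng/ml DOX (n = 4), 25 ng/ml recombinant mouse IL-17A (n = 3) or both at these doses (DOX+IL-17A, n = 3). In every condition RNA was taken after 48 hours from a culture well of the same transgenic line, so no comparison here tests the transgene. The labels give DMEM/F12 with FBS as the medium, whereas the study's methods for the line give RPMI. The methods speak of biological replicates in general, but nothing ties these libraries to separate cultures, so p-values measure the spread between these libraries, which may be technical.

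Srxn1, the sulfiredoxin gene, was lower with DOX in cells that had IL-17A (DOX+IL-17A against IL-17A), in a comparison in which 13.3% of all tested genes were called. In DOX against control, where 22.1% of tested genes were called, 0 of the 10 members were. The classical NRF2 targets Hmox1 and Nqo1 did not pass the test in any comparison of the limma fit over all libraries. Of the members, only Srxn1 was called in that fit in a comparison of 1 condition with another: in DOX+IL-17A against IL-17A and in DOX+IL-17A against control, where 17.7% of tested genes were called. In cells that had IL-17A it stood at 23.0 ± 10.6 normalized units with DOX and 67.8 ± 15.5 without (mean ± SD, n = 3 each), a fall of 1.60 on the log2 scale. The mean of Txnrd1 was lower in DOX than in control with all libraries and higher without 1 high control library, and without that library the difference of Gclm went from -0.96 to -0.36 on the log2 scale.

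NRF2, the product of Nfe2l2, is a basic leucine zipper factor that pairs with small MAF proteins and binds antioxidant response elements in front of its target genes. In unstressed cells KEAP1 holds NRF2 for a cullin 3 ubiquitin ligase and so keeps it short-lived, and electrophiles and oxidants that modify KEAP1 let NRF2 accumulate. Its targets make glutathione, reduce thioredoxin, repair peroxiredoxins, degrade heme and reduce quinones, and in many carcinomas the pathway is raised and is known for drug resistance. Because NRF2 is controlled mainly through the stability of the protein, the level of Nfe2l2 RNA is no direct measure of its activity.

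In the mm10 annotation (GENCODE M21) the regulators lie at chr2:75675513-75704641 on the minus strand (Nfe2l2) and chr9:21229730-21239361 on the minus strand (Keap1). Hmox1 lies at chr8:75093621-75100589 (plus) and Nqo1 at chr8:107388225-107403206 (minus). Of the glutathione genes, Gclc is at chr9:77754535-77794485, Gclm at chr3:122245557-122270732 and Gsr at chr8:33652523-33698163, each on the plus strand. Of the thioredoxin and peroxiredoxin genes, Txnrd1 is at chr10:82833951-82897712, Srxn1 at chr2:152105516-152111376 and Prdx1 at chr4:116685544-116700822, again on the plus strand. All 10 are annotated as protein coding. The 3' ends of Keap1 and Gclm overlap a gene on the other strand (Gm16754 and Gm17494). The strand setting of the counting is not given in the sources used here, so reads of these pairs cannot be told apart.

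The promoters of the members are shown because binding of NRF2 to the antioxidant response element is what ties them together. RefSeq promoters (GRCm38.p6, 250 bases before to 50 after each start site) were on hand for 7 of the 10 members, and the core TGACNNNGC was searched on both strands. It was found in 5 of these 7 genes and in 16.9% of the genes listed for these cells that had a promoter. By promoter, it was found in 5 of 9 for the members and in 12.4% of all 32851. In the wider list of NRF2 pathway genes described below, 17 of 72 genes with a promoter held it (23.6%). Sequences run 5′ to 3′ on the strand of the gene, and capitals mark the match, which reads from TGAC on the gene's strand or as its reverse complement ending in GTCA. The Nfe2l2 match starts at position -240 from the start site, within chr2:75704855-75704913 (minus strand). That of Gclm starts at -134 (chr3:122245383-122245471, plus), that of Txnrd1 at -92 from 1 of its 3 start sites (chr10:82859074-82859162, plus) and that of Prdx1 at -133 (chr4:116685426-116685514, plus). The Srxn1 match lies after the start site, at 29 (chr2:152105542-152105570, plus).
Nfe2l2: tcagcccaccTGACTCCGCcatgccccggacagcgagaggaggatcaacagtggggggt
Gclm: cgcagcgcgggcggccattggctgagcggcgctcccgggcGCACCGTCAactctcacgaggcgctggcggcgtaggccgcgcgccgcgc
Txnrd1: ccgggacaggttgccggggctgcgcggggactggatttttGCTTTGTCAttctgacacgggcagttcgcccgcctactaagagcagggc
Srxn1: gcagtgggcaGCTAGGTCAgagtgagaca
Prdx1: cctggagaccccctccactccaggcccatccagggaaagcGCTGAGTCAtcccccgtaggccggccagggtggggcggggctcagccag
The Prdx1 match also holds the letters TGAGTCA, the site of AP-1 factors, within it. No match was found in the windows of Keap1 and Nqo1, which says only that these letters are not within these windows.

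Values are normalized units, which are library-scaled read counts (TMM, which adjusts each library for the makeup of its RNA). Libraries were made from the 3' ends of polyadenylated RNA, so a gene's value does not grow with the length of its transcript and levels can be set side by side between genes. Reads on listed genes ranged from 4445592 to 16930600 per library, the lowest being DOX+IL-17A replicate 2. A value of 3 reads, taken as the detection floor, corresponds to between 0.183 and 0.613 units, and each member was above it in all 13 libraries. In bulk RNA, fewer cells that express a gene and less RNA per cell cannot be told apart. All 8 epithelial markers were listed, and their summed level was 2015 to 2395 units in control, 1789 to 2165 in IL-17A, 1083 to 1160 in DOX and 927 to 1191 in DOX+IL-17A. They did not move as a set. Mean Krt14 was higher with DOX (81.9 against 41.1 units in control, and 76.9 in DOX+IL-17A against 32.6 in IL-17A). Cdh1 and Cldn7 had lower means in DOX than in control, but not in DOX+IL-17A (13.9 and 65.3) against IL-17A (13.2 and 57.3). The other markers had lower means with DOX in both backgrounds. Muscle markers (10 of 10 listed) summed to 276 units and red blood cell markers (3 of 6 listed) to 66.5 units in DOX replicate 1, against 9.69 to 49.1 and 0 to 14.4 units in the other libraries. Immune (3 of 8 listed), liver (1 of 6) and fibroblast markers (5 of 7) reached at most 36.6, 2.25 and 143 units. The fibroblast maximum was in control replicate 1. The part of these markers in the results was not tested.

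Control replicate 1 stood apart. It differed by more than 2-fold from control replicates 3 and 5 in 35.4% and 30.9% of tested genes, whereas replicates 3 and 5 differed from each other in 4.70% and the DOX libraries among themselves in 4.25% to 11%. The DOX+IL-17A libraries differed among themselves in 12.2% to 19.0% of tested genes and the IL-17A libraries in 7.03% to 19.4%. Among the members, control replicate 1 was 3.52 times the mean of the other two controls for Gclm, 2.68 times for Txnrd1, 2.38 times for Hmox1 and 0.280 times for Prdx1. DOX+IL-17A replicate 2 was 4.84 times the mean of its other two libraries for Hmox1, 2.89 times for Nqo1 and 2.45 times for Gclc.

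Levels of the members spanned more than 2 orders of magnitude. In control cells Prdx1 was highest (695 ± 382 units, n = 3), followed by Txnrd1 (258 ± 163), Nfe2l2 (193 ± 49.7), Gsr (85.1 ± 13.3), Keap1 (78.9 ± 15.2), Gclm (71.5 ± 56.7), Srxn1 (51.7 ± 13.2), Gclc (19.0 ± 4.11), Hmox1 (8.93 ± 4.95) and Nqo1 (2.10 ± 1.05). The ranges of Prdx1, Txnrd1 and Nfe2l2 overlapped from each gene to the next, as did those of Gsr, Keap1, Gclm and Srxn1. The lowest Nfe2l2 value was above the highest of Gsr, and Srxn1, Gclc, Hmox1 and Nqo1 did not overlap with each other in this order. In the 4 DOX libraries, where the spread was smaller, Prdx1 (846 ± 199), Txnrd1 (213 ± 15.2) and Nfe2l2 (136 ± 23.9) again led and did not overlap, and Hmox1 (9.07 ± 2.43) and Nqo1 (3.46 ± 1.39) were again lowest. Nqo1, the quinone reductase gene, rested on 8 to 89 reads per library and Hmox1 on 37 to 179, while Prdx1 had 1515 to 16423.

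**Figure D1:**
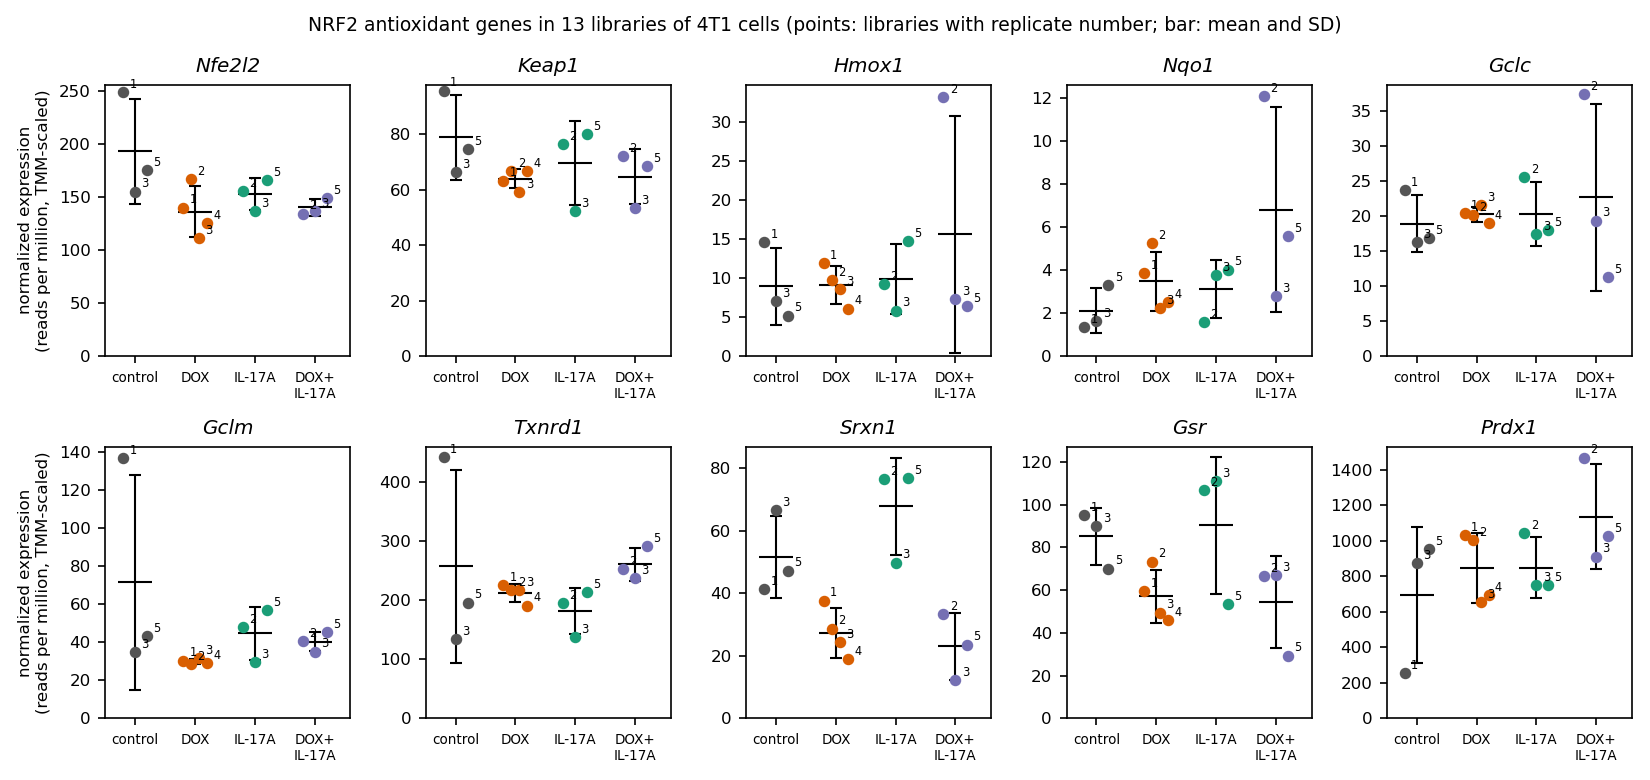
Level of each of the 10 members (normalized units, linear axis from 0) in the 13 libraries, with points numbered by replicate and bars for the mean and SD of each condition. Srxn1 lay between 12.1 and 37.7 units in the 7 libraries with DOX and between 41.3 and 76.9 in the 6 without it, and control replicate 1 stood far from the other controls for Gclm, Txnrd1 and Prdx1. The share of tested genes that DOX split as it did Srxn1 was not counted.

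Differences are log2 fold changes of value + 1, which understate the change of genes as low as Nqo1, and a call means an adjusted p under 0.05 in limma over 12319 tested genes. In DOX against control 0 of the 10 members were called, where 22.1% of tested genes were called (12.4% higher and 9.71% lower). At an unadjusted p under 0.05 there were 3 members (Nfe2l2, Gclm and Srxn1), where 36.5% of tested genes passed. Other tools called 1 (voom, Srxn1), 1 (edgeR, Gclm) and 2 (DESeq2, Gclm and Srxn1). The members' median was -0.19, beside 0.09 over all tested genes, a median that became 0.24 under scaling by library size. In DOX+IL-17A against IL-17A, which shares no library with the first comparison, 1 of 10 was called (Srxn1) where 13.3% of tested genes were, or 2 of 10 (Srxn1 and Gsr) in a fit blocked by replicate number. The medians were -0.04 and 0.02, the latter moving to 0.22 with scaling by library size. The first count was below the share of all genes called and the second near it.

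**Figure D2:**
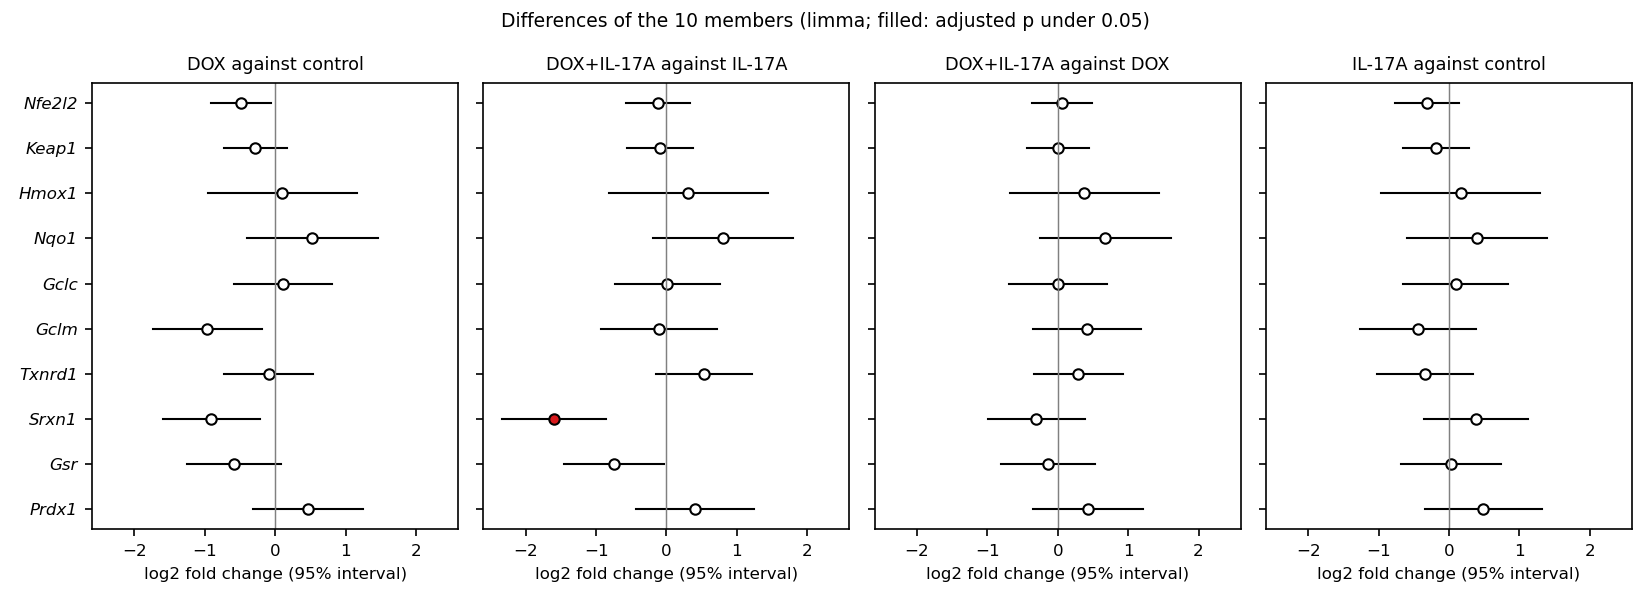
Difference of each member in 4 comparisons (log2 fold change of value + 1 by limma, point) with its 95% interval (line), and a filled point where the adjusted p was under 0.05. Only Srxn1 in DOX+IL-17A against IL-17A is filled, and the intervals of Hmox1 and Nqo1 are the widest in DOX against control.

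Of the regulators, Nfe2l2 encodes NRF2 itself. It stood at 249.7, 155 and 175 units in control replicates 1, 3 and 5, and at 140.3, 168, 112 and 126 in DOX replicates 1 to 4. With IL-17A alone it was 156, 137 and 166 units, and with both agents 135, 137 and 149. The DOX libraries were lower on average than controls, but DOX replicate 2 lay above control replicate 3. The log2 difference for DOX was -0.49 (SE 0.20, adjusted p = 0.090 by limma), and -0.29 without control replicate 1 (adjusted p = 0.28). In cells with IL-17A it was -0.12 (SE 0.21, adjusted p = 0.75), with a 95% interval from -0.57 to 0.33, and 0.10 under scaling by library size.

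Keap1, the adaptor that hands NRF2 to the ubiquitin ligase, varied little. Its values were 95.8, 66.3 and 74.5 units in control and 63.3, 66.7, 59.3 and 66.7 in DOX. They were 76.5, 52.2 and 80.1 in IL-17A, and 72.0, 53.3 and 68.5 in DOX+IL-17A. The ranges overlapped in every comparison. The log2 difference for DOX was -0.28 (SE 0.21, adjusted p = 0.35) without IL-17A and -0.09 (SE 0.22, adjusted p = 0.83) with it, the latter 0.13 under scaling by library size.

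Heme oxygenase 1, which cleaves heme, is often read as the marker of an NRF2 response. Hmox1 stood at 14.5, 7.06 and 5.19 units in control and at 11.9, 9.74, 8.53 and 6.08 in DOX. In IL-17A it was 9.24, 5.82 and 14.7, and in DOX+IL-17A 33.1, 7.25 and 6.43. Replicate 2 of DOX+IL-17A, the library with the fewest reads, was thus the highest of all 13, and the other two libraries of its condition were within the range of controls. For DOX the log2 difference was 0.10 without IL-17A (SE 0.50, adjusted p = 0.91) and 0.31 with it (SE 0.53, adjusted p = 0.75). The 95% interval of the first ran from -0.96 to 1.16, so that changes of close to 2-fold in either direction lay within it. The second was -0.40 without DOX+IL-17A replicate 2, and the difference between DOX+IL-17A and DOX turned likewise, from 0.38 (SE 0.50) to -0.33.

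Nqo1 encodes the NAD(P)H quinone reductase, which acts on quinones such as those of anthracyclines. It stood at 1.35, 1.64 and 3.30 units in control and at 3.86, 5.26, 2.24 and 2.50 in DOX. In IL-17A it was 1.58, 3.77 and 4.02, and in DOX+IL-17A 12.1, 2.78 and 5.56. DOX means were higher than those of the matching DOX-free cells, yet ranges overlapped in every comparison. With DOX the log2 difference was 0.53 without IL-17A (SE 0.44, adjusted p = 0.40) and 0.80 with it (SE 0.47, adjusted p = 0.28), the latter 0.33 without DOX+IL-17A replicate 2. Against control, DOX+IL-17A was higher by 1.20 (SE 0.47, adjusted p = 0.089), with 0.74 when DOX+IL-17A replicate 2 was left out. The fit without DOX+IL-17A replicate 3 gave 1.63 and an adjusted p of 0.042, and DESeq2 gave 0.047, so this value sat close to the threshold on both sides.

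Glutathione is made by glutamate-cysteine ligase, of which Gclc encodes the catalytic and Gclm the modifier subunit. Gclc was even in control (23.7, 16.3 and 16.9 units) and DOX (20.4, 20.1, 21.5 and 19.0). It was 25.6, 17.4 and 18.0 in IL-17A and spread from 37.4 through 19.4 to 11.2 in DOX+IL-17A. The DOX libraries lay within the range of controls. On the log2 scale DOX differed from control by 0.11 (SE 0.33, adjusted p = 0.84) without IL-17A and 0.01 (SE 0.35, adjusted p = 0.98) with it.

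Gclm stood at 137, 34.6 and 43.0 units in control and at 30.3, 28.5, 31.6 and 28.9 in DOX, so that all 4 DOX libraries were below all controls. It shared this with 15.2% of tested genes. IL-17A gave 48.0, 29.6 and 56.9 units and DOX+IL-17A 40.7, 35.1 and 45.2. The log2 difference for DOX was -0.96 (SE 0.36, adjusted p = 0.070) and dropped to -0.36 (adjusted p = 0.32) without control replicate 1, while without control replicate 3 it was -1.34 and was called (adjusted p = 0.017). With IL-17A present the DOX difference was -0.11 (SE 0.39, adjusted p = 0.89), or 0.11 under scaling by library size. DOX+IL-17A lay above DOX in every library, by 0.42 (SE 0.36, adjusted p = 0.998).

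Gsr, which returns oxidized glutathione to its reduced form, was 95.2, 90.1 and 70.0 units in control and 59.5, 73.4, 49.5 and 45.9 in DOX. With IL-17A it was 107, 111 and 53.4 units, and with both agents 66.5, 67.0 and 29.3. In each pair 1 library overlapped, DOX replicate 2 in the first and IL-17A replicate 5 in the second, yet no DOX+IL-17A library reached the lowest control. In the fit without a block the DOX difference was not called, at -0.58 (SE 0.31, adjusted p = 0.20) without IL-17A and -0.75 (SE 0.34, adjusted p = 0.16) with it. Nor was that between DOX+IL-17A and control, at -0.72 (SE 0.34, adjusted p = 0.15). In a fit blocked by replicate number the difference between DOX+IL-17A and IL-17A was -0.75 (SE 0.22) and was called (adjusted p = 0.041 by limma). The block also called DOX against control (-0.82, adjusted p = 0.038) and DOX+IL-17A against control (-0.80, adjusted p = 0.049). The labels give no pairing, and same-numbered libraries correlated only weakly, so these calls rest on a pairing that is not established. Gsr was lower with DOX in each of the 3 same-numbered pairs, but the share of tested genes lower in all 3 was not counted.

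Thioredoxin reductase 1, the product of Txnrd1, keeps thioredoxin reduced. Its gene stood at 442, 134 and 196 units in control and at 226, 218, 216 and 191 in DOX. IL-17A gave 194, 138 and 213 units and DOX+IL-17A 253, 238 and 292. All 3 DOX+IL-17A libraries were above all IL-17A libraries, as were 16.4% of tested genes, and above all DOX libraries, as were 4.66%. The DOX difference was -0.09 on the log2 scale without IL-17A (SE 0.30, adjusted p = 0.85), and it became 0.39 (adjusted p = 0.19) without control replicate 1 and 0.082 under scaling by library size. With IL-17A it was 0.53 (SE 0.32, adjusted p = 0.29), and between DOX+IL-17A and DOX it was 0.29 (SE 0.30, adjusted p = 0.998). Without control replicate 1, DOX+IL-17A was called higher than control, by 0.68 (adjusted p = 0.036).

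Srxn1 encodes sulfiredoxin, the enzyme that restores over-oxidized peroxiredoxins. It stood at 41.3, 66.5 and 47.3 units in control and at 37.7, 28.7, 24.3 and 18.9 in DOX. In IL-17A it was 76.6, 49.8 and 76.9, and in DOX+IL-17A 33.3, 12.1 and 23.6. Every library with DOX was below every library without it (at most 37.7 against at least 41.3 units). The share of tested genes that split in this way was not counted. In cells with IL-17A the level with DOX was 0.330 times that without (log2 difference -1.60, SE 0.35, adjusted p = 0.0086 by limma), and all 3 libraries were below all 3, as for 15.5% of tested genes. The call held in all 13 fits that left out a library (adjusted p from 0.0029 to 0.041) and under every alternative (0.00064 to 0.018). Without IL-17A the log2 difference was -0.91 (SE 0.33, adjusted p = 0.057), and it was called without control replicate 1 (-1.05, adjusted p = 0.040), DOX replicate 1, DOX+IL-17A replicate 2 or DOX+IL-17A replicate 3.

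Prdx1, a peroxiredoxin that removes peroxide and a substrate of sulfiredoxin, was the most abundant member. It stood at 256, 875 and 953 units in control and at 1032, 1004, 658 and 692 in DOX. It was 1046, 751 and 753 units in IL-17A and 1470.3, 912 and 1025 in DOX+IL-17A. Ranges overlapped in every comparison, and control replicate 1 was the lowest of all 13 libraries. The log2 difference for DOX was 0.47 without IL-17A (SE 0.37, adjusted p = 0.37), or -0.14 without control replicate 1, and 0.41 with IL-17A (SE 0.39, adjusted p = 0.54), or 0.20 without DOX+IL-17A replicate 2. Between DOX+IL-17A and control it was 0.89 (SE 0.39, adjusted p = 0.13), or 0.28 without control replicate 1.

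**Figure D3:**
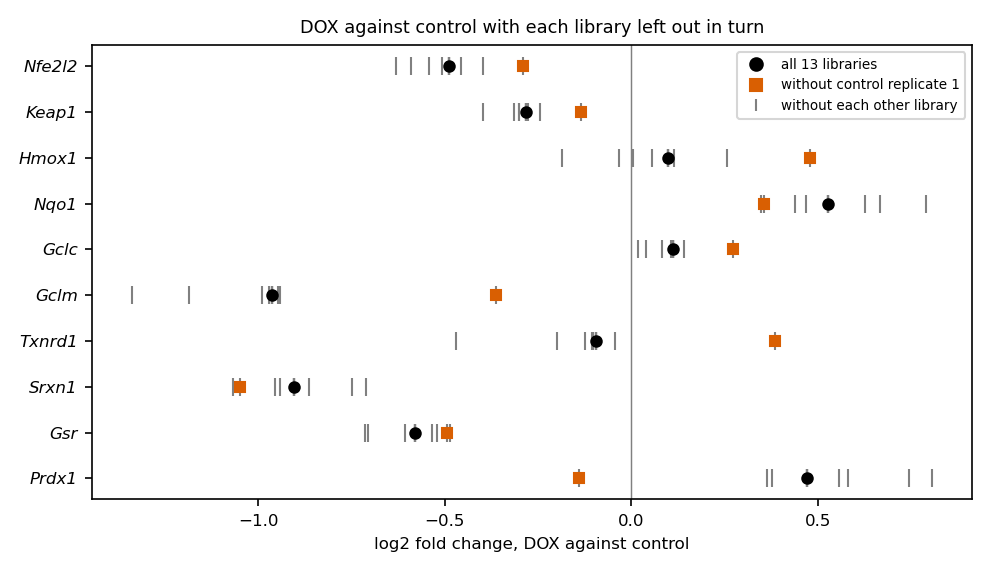
Log2 fold change of each member in DOX against control with all 13 libraries (black), without control replicate 1 (orange) and without each other library in turn (ticks). Txnrd1 moved from -0.09 to 0.39 and Prdx1 from 0.47 to -0.14 when control replicate 1 was left out, while Srxn1 stayed between -1.07 and -0.71 and Gsr between -0.71 and -0.49 in all 13 leave-outs. Leaving out a DOX+IL-17A or IL-17A library cannot change these differences, so only leave-outs of control and DOX libraries bear on them.

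The effect of DOX was also averaged over cells with and without IL-17A, a contrast added after the data were seen, in which 34.3% of tested genes were called (18.5% higher and 15.8% lower). By this measure 2 of 10 members were called, both lower. Srxn1 was lower by -1.25 on the log2 scale (SE 0.24, adjusted p = 0.0010) and was called in 13 of 13 leave-outs. Gsr was lower by -0.66 (SE 0.23, adjusted p = 0.036) and was called in 6 of 13, with adjusted p up to 0.094. Without control replicate 1, Txnrd1 was called higher, by 0.46 (adjusted p = 0.016), against 0.22 (adjusted p = 0.46) with all libraries. The summed epithelial markers were lower in every library with DOX than in every library without it, as Srxn1 was. Gsr did not follow them in every library, as IL-17A replicate 5 had 53.4 units of Gsr at a marker sum of 2165. The part of these markers in these results was not tested.

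IL-17A was also given by itself. In IL-17A against control 0 of 10 members were called by limma, voom, edgeR or DESeq2, and 0 passed an unadjusted p under 0.05, where 0.00812% of tested genes (1 gene) were called and 3.08% passed unadjusted. The median of the members was 0.06, beside 0.02 over all tested genes, and every member's range in IL-17A overlapped that in control, where 6.04% of tested genes did not overlap. The 95% intervals were widest for Hmox1 (-0.97 to 1.30) and narrowest for Nfe2l2 (-0.76 to 0.14).

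Adding IL-17A to DOX gave the same count. In DOX+IL-17A against DOX 0 of 10 members were called by any of the 4 tools and 0 passed unadjusted, where 0.455% of tested genes were called and 6.35% passed unadjusted. The members' median was 0.17, beside -0.03 over all. Gclm and Txnrd1 were higher in every DOX+IL-17A library than in every DOX library, as given above, and Nqo1 was higher on average by 0.67 (SE 0.44, adjusted p = 0.98), or 0.21 without DOX+IL-17A replicate 2.

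The difference between the effects of DOX with and without IL-17A was called for 0 of 10 members and for 0% of tested genes by limma, with 0 members and 4.51% of tested genes at an unadjusted p under 0.05, and no member was called by voom, edgeR or DESeq2. It was 0.86 for Gclm (SE 0.53), 0.63 for Txnrd1 (SE 0.44) and -0.69 for Srxn1 (SE 0.48), each with an adjusted p of 0.90. Without control replicate 1 the first fell to 0.26 and the second to 0.15. The larger fall of Srxn1 in cells with IL-17A was therefore not shown to differ from that in cells without it.

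DOX+IL-17A was last set against control, the same 3 controls as in DOX against control. Srxn1 was the 1 of 10 members called, where 17.7% of tested genes were, and Nfe2l2, Srxn1 and Gsr were lower in all 3 libraries than in all controls, as were 14.5% of tested genes. The Srxn1 difference was -1.21 (SE 0.35, adjusted p = 0.026), and the call was lost without control replicate 3, control replicate 5 or DOX+IL-17A replicate 3 (adjusted p up to 0.12). Nfe2l2 differed by -0.43 (SE 0.21, adjusted p = 0.17). At an unadjusted p under 0.05 there were 4 members (Nqo1, Srxn1, Gsr and Prdx1), where 32.5% of tested genes passed.

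A wider list of 82 genes of the NRF2 pathway was written with earlier results of these data known. Of these, 77 were listed and 74 tested. In DOX against control 9 rose and 9 fell, beside the 12.4% and 9.71% of all tested genes given above, and the list's median was -0.21. Of the 24 tested genes of conjugation, carbonyl reduction and export 5 fell and 1 rose, and of the 11 partners and regulators of NRF2 3 rose and 3 fell. In the glutathione group 2 of 9 rose, in the thioredoxin and peroxiredoxin group 2 of 13 rose and 1 fell, and of the superoxide and peroxide group 1 of 3 rose. Of the 6 genes of NADPH supply and the 8 of heme and iron handling 0 were called by limma, with 3 and 2 at an unadjusted p under 0.05.

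Akr1b3, the aldose reductase gene, rose most, from 25.7, 71.1 and 63.9 units in control to 208, 229, 235 and 243 in DOX, a log2 difference of 2.20 (SE 0.36, adjusted p = 0.00081). Sod2, the mitochondrial superoxide dismutase gene, rose by 1.59 and Sesn2, a sestrin gene induced by p53 and by stress, by 1.56. In control Sesn2 rested on only 7, 7 and 2 reads, so its fitted value depends on the pseudocount. Slc3a2, the heavy chain of the cystine and glutamate exchanger, rose by 1.49, Hagh, a glyoxalase gene, by 1.19, and Osgin1 by 1.03. Mafk, a small MAF partner of NRF2, and Txn2, the mitochondrial thioredoxin gene, each rose by 0.91. In Sod2 and Slc3a2 control replicate 1 was the lowest control (8.80 and 27.1 units, against 46.9 and 40.7, and 143 and 87.3), and both calls were lost without it, at 0.86 (adjusted p = 0.052) and 0.82 (adjusted p = 0.058), as they were without DOX replicate 2 (Sod2) or DOX replicate 4 (Slc3a2). Control replicate 1 was also the lowest control for Hagh (6.26 units, against 30.4 and 31.1), and without it the Hagh difference was 0.48 (adjusted p = 0.18). The Hagh call was lost in 11 of 13 leave-outs.

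Gstm1, a glutathione S-transferase gene of the mu class, fell most, from 25.9, 35.8 and 38.7 units in control to 3.86, 6.13, 5.73 and 2.32 in DOX, a log2 difference of -2.69 (SE 0.35, adjusted p = 0.00014). Gstm5 of the same class differed by -1.19 and Gstp1 of the pi class by -0.80. How reads that match several of these related genes were counted is not given in the sources used here. Abcc3 and Abcc1, pumps that export conjugates and drugs, differed by -1.31 and -0.69. In DOX replicates 1 to 4 Abcc3 had 26, 51, 3 and 32 reads, the third at the floor, so its fitted value depends on the pseudocount. Btrc and Gsk3b, which act in the KEAP1-independent breakdown of NRF2, differed by -1.20 and -0.89, and Prdx2, a peroxiredoxin gene, by -0.64. Cul3, the cullin 3 gene of the ligase that KEAP1 serves, differed by -0.62 (adjusted p = 0.037 by limma). Without control replicate 1 the calls of Btrc and Cul3 were lost, at -0.81 (adjusted p = 0.12) and -0.61 (adjusted p = 0.052). Of the 18 called genes, 5 (Akr1b3, Gsk3b, Gstm1, Sesn2 and Txn2) were called in all 13 leave-outs, and the other 13 lost the call in 2 to 11 of them. Leaving out DOX replicate 1 or 4 lost 10 each, and leaving out DOX replicate 3 or control replicate 1 or 5 lost 9 each. The 3' ends of Akr1b3, Mafk and Prdx2 overlap a gene on the other strand (Gm14546, Tmem184a and Junb), so the limit given for Keap1 holds for them too.

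**Figure D4:**
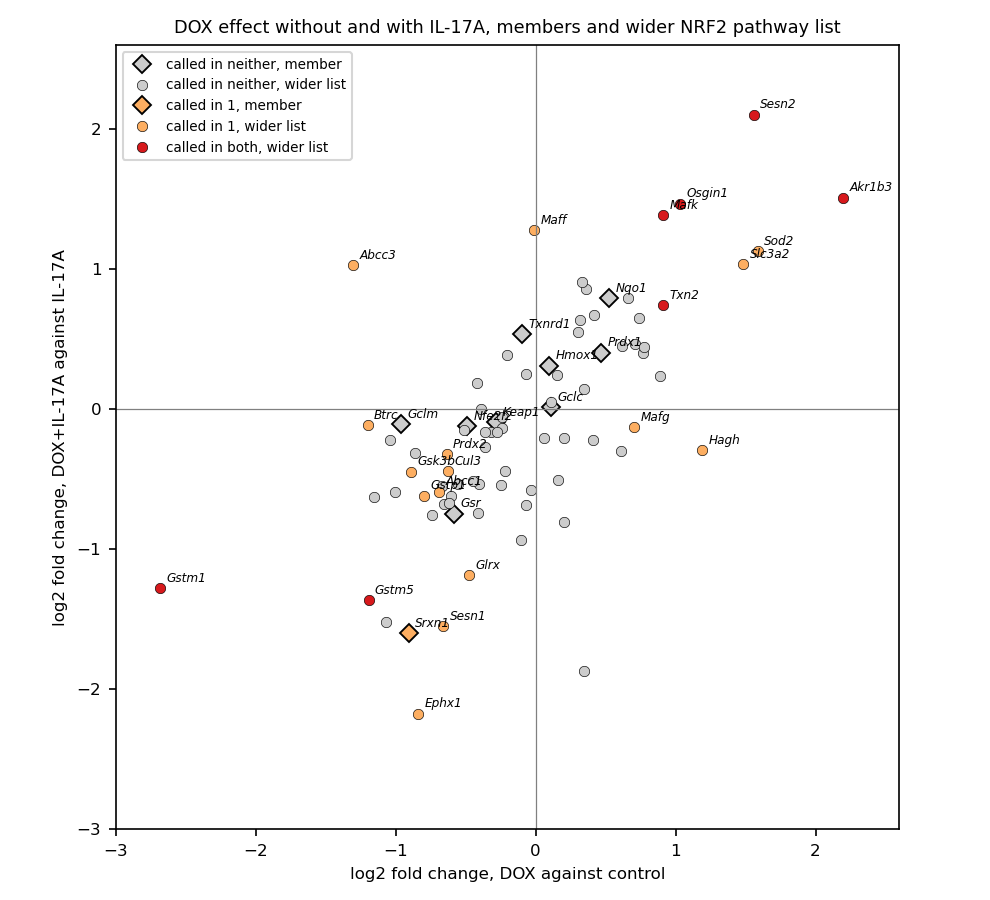
Log2 fold change of DOX against control (x) and of DOX+IL-17A against IL-17A (y) for the 10 members (diamonds) and the 74 tested genes of the wider list (circles), coloured by whether the gene was called in neither, 1 or both. The 7 genes called in both lie in the upper right and lower left, and the members lie within 1 of 0 on both axes except Srxn1, at -0.91 and -1.60.

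With IL-17A present, 6 genes of the wider list rose and 5 fell with DOX, where 6.51% and 6.75% of all tested genes did. Sesn2 rose by 2.11 (SE 0.38, adjusted p = 0.0029), Akr1b3 by 1.51 and Osgin1 by 1.47. Sesn2 had 1, 2 and 6 reads in IL-17A, the first pair of them under the floor of 3 reads, so its fitted value depends on the pseudocount and its size is not a measured fold. Ephx1, the microsomal epoxide hydrolase gene, differed by -2.18 (SE 0.43, adjusted p = 0.0050), from 14.5, 20.8 and 23.9 units in IL-17A to 4.70, 2.28 and 3.87 in DOX+IL-17A. Its control values of 3.05, 8.16 and 11.1 units were below all IL-17A libraries and overlapped DOX+IL-17A. Ephx1 was called neither in DOX against control nor in DOX+IL-17A against control. Sesn1 differed by -1.55 and Gstm5 by -1.37. Of the 11 calls, those of Ephx1 and Sesn2 held in all 13 leave-outs, and up to 8 were lost without a single library (IL-17A replicate 3). Ephx1 overlaps Gm36961 on the same strand at its 3' end, so strand cannot tell their reads apart.

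The effects of DOX without and with IL-17A rest on different libraries. Of the wider list, 7 genes were called in both with the same sign (Akr1b3, Gstm1, Gstm5, Mafk, Osgin1, Sesn2 and Txn2), which is 38.9% of the first list of calls and 63.6% of the second. Over all tested genes these shares were 42.1% and 70.2%, so the overlap of the wider list was near the background. The sign was shared by 9 of 10 members (all but Txnrd1), by 79.7% of the wider list and by 76.0% of all tested genes.

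In DOX+IL-17A against DOX 1 of the 74 genes was called by limma, where 0.455% of all tested genes were. DESeq2 called 2 of them and the replicate block 0. Abcc3 rose from 2.09, 5.58, 0.419 and 2.86 units in DOX to 22.3, 19.7 and 18.2 in DOX+IL-17A, a log2 difference of 2.69 (SE 0.44, adjusted p = 0.011), and lay above the 9.81, 5.85 and 6.01 units of control as well. The call was lost when DOX replicate 4 or any DOX+IL-17A library was left out. The DOX values rest on the 26, 51, 3 and 32 reads given above, so the size of this difference depends on the pseudocount. In IL-17A against control 0 of the 74 genes were called by limma, voom, edgeR or DESeq2, where limma called 0.00812% of all tested genes. At an unadjusted p under 0.05 in limma there were 3, where 3.08% of tested genes passed. In DOX+IL-17A against control 8 rose, led by Akr1b3 (2.20), Sod2 (1.97, or 1.24 without control replicate 1) and Sesn2 (1.83, against the 7, 7 and 2 control reads given above), and 4 fell, led by Gstm1 (-1.36), Sesn1 (-1.30) and Gstm5 (-1.24), where 9.37% and 8.34% of tested genes did. Of these 12 calls, those of Akr1b3, Sesn2, Sod2 and Txn2 held in all 13 leave-outs. This comparison shares its controls with DOX against control.

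Over the 13 libraries, the tested genes with a mean of at least 10 units whose levels were most like those of Nfe2l2 were Ank (Pearson's r = 0.95), Rasa1 (0.94) and Snx17 (0.93). For Hmox1 they were Snx12 (0.88), Lsm4 (0.85) and Steap3 (0.84), and for Nqo1 Higd2a (0.83), Pxn (0.83) and Uba2 (0.82). These are descriptions over libraries that share conditions and include control replicate 1. Among the members themselves, Nfe2l2 was closest to Gclm (r = 0.82) and Keap1 (0.77), Hmox1 to Gclc (0.76), and Srxn1 and Prdx1 stood near 0 to each other (-0.03).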

How the data were processed

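RNA of 4T1-Thy1.1 cells in 4 conditions was sequenced as 3' mRNA libraries with single 75 base reads. According to the deposited labels and the study's methods, the authors checked and trimmed reads with FastQC and Trimmomatic, mapped them to mm10 with STAR, counted them with featureCounts and normalized the counts by TMM. In the deposited table each gene has this normalized signal for every library, without raw counts. The authors' table also names 17 genes by dates, and 1 identical second entry for Ifit1 was dropped (13223 entries, 13222 genes).

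Values of each library were whole multiples of the value of 1 read (100% within a tolerance of 0.01), and reads were recovered from them. The floor of 3 reads covers counting error only. All 13 libraries entered a limma fit with trend of log2(value + 1) by condition (9 residual degrees of freedom, or 5 when replicate numbers were a block), over 12319 genes kept by edgeR's filterByExpr. DOX+IL-17A and IL-17A share replicate numbers 2, 3 and 5. Deviations of their same-numbered libraries from the condition means correlated weakly (r = 0.168, 0.203 and 0.355). The main fit paired no libraries. Only the block fit used the numbers, and it did so for same-numbered libraries of all conditions. Treating these numbers as pairs comes from the data, not from the labels. Libraries with different numbers had r from -0.56 to 0.47, so these correlations do not establish a pairing. P-values were adjusted by Benjamini-Hochberg over all tested genes and genes called under 0.05.

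Members and lists were chosen with earlier results of these data known. All members are named, with up to 8 called genes of the wider list in each direction for DOX against control and up to 3 elsewhere, and for Nfe2l2, Hmox1 and Nqo1 the 3 most correlated genes. Cul3 is named beside these as the remaining regulator that fell in DOX against control. Abcc3, Sod2, Slc3a2, Ephx1 and Gstm1 levels are given as examples. Alternatives were voom, edgeR and DESeq2 on recovered reads, scaling by library size, no filter, a pseudocount of 0.1, only the groups compared, the replicate block, a fold above 2, and each library left out. DOX averaged over both backgrounds was added after seeing the data. Scripts were tested on simulated data. Versions were R 4.3.3 with DESeq2 1.42.0, edgeR 4.0.16 and limma 3.58.1, and python 3.11.15 with pandas 2.3.3, numpy 2.4.6 and matplotlib 3.10.9.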

Additional observations from a re-analysis of the deposited data

Results flagged for a closer look

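For Txnrd1, every DOX library (191 to 226 units) was below the control mean of 258 units, and every DOX+IL-17A library (238 to 292 units) was above the IL-17A mean of 182 units. The log2 difference for DOX was -0.09 without IL-17A and 0.53 with it, but the first was 0.39 without control replicate 1 and 0.082 under scaling by library size, the same direction as the second. The difference between the effects was 0.63 on the log2 scale (SE 0.44, adjusted p = 0.90 by limma), and it was 0.15 without control replicate 1, which stood at 442 units against 134 and 196 in the other controls. No member had a library far from the others in the DOX group, which was the only group of 4 and so the only one that could be examined in this way.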

How the results depend on the processing

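Counts of called members were 0 in DOX against control, 1 in DOX+IL-17A against IL-17A and 1 in DOX+IL-17A against control. The first became 1 with voom, edgeR or only the groups compared and 2 with DESeq2, or with DOX averaged over both backgrounds, which was added after the data were seen. The third became 2 with DESeq2 (Nqo1 added) and 0 with only the groups compared. Leaving out a library gave 0 to 1 in the first and 0 to 2 in the third. The 18 calls of the wider list in DOX against control became 11 with only the groups compared, 10 with a fold above 2 and 28 with the average (8 to 19 with a library left out). Its 11 calls in DOX+IL-17A against IL-17A ranged from 3 to 19, its 1 call in DOX+IL-17A against DOX from 0 to 1, with 2 for DESeq2, and its 12 calls in DOX+IL-17A against control from 7 to 13, with 3 for only the groups compared. Of all genes, the 2724 calls in DOX against control became 4220 with the average (1864 to 2878 with a library left out), and the 1633 in DOX+IL-17A against IL-17A ranged from 755 to 2733. The 56 in DOX+IL-17A against DOX became 36 with edgeR, 100 with DESeq2, 23 with a pseudocount of 0.1 and 98 with only the groups compared (1 to 96). The 2182 in DOX+IL-17A against control became 601 with only the groups compared (1334 to 2607). The 1 call in IL-17A against control became 0 with voom, edgeR, library-size scaling, no filter, a pseudocount of 0.1 or only the groups compared and 14 with DESeq2 (0 to 2), and the 0 calls for the difference between the effects became 18 with DESeq2 (0 to 1). With only the groups compared, fewer libraries estimate the spread. The cause of the other shifts was not tested. Directions turned in DOX against control for Hmox1 (-0.017 with DESeq2, and -0.19 to 0.48 with a library left out), Txnrd1 (0.082 with library-size scaling, 0.22 with the average, -0.47 to 0.39) and Prdx1 (-0.14 to 0.81). In DOX+IL-17A against IL-17A they turned under library-size scaling for Nfe2l2 (0.10), Keap1 (0.13) and Gclm (0.11), with voom for Hmox1 (-0.081) and Gclc (-0.17), and with a library left out for Keap1 (-0.28 to 0.037), Hmox1 (-0.40 to 0.70), Gclc (-0.41 to 0.41) and Gclm (-0.37 to 0.087), and in DOX+IL-17A against DOX for Hmox1 (-0.33 to 0.77). None of these had been called. Replicate numbers were also used as a block. Same-numbered libraries of different conditions shared deviations weakly (mean r 0.15 over 13 pairs, from -0.18 to 0.49). Over 50 pairs with different numbers the mean r was -0.04 (from -0.56 to 0.47). Apart from DOX+IL-17A and IL-17A, conditions shared only 2 numbers, and nothing more than the number ties those libraries. The block fit still treated same-numbered libraries of all conditions as belonging together. With the replicate block, called members became 1 (Gsr) in DOX against control, 2 (Srxn1 and Gsr, no other member call changing) in DOX+IL-17A against IL-17A and 2 in DOX+IL-17A against control, and calls of the wider list 8 in the first and 0 in DOX+IL-17A against DOX. Calls over all genes became 1780 in DOX against control, 14 in DOX+IL-17A against DOX and 0 in IL-17A against control. In the block fit Hmox1 (-0.0091) and Gclc (-0.14) turned in DOX against control. Of 1075 values compared, 943 kept their direction and side of the threshold or stayed within 1.5 times the count. Leaving out a library of a condition not compared could change the adjusted p but not the log2 difference. Depth limits Nqo1 most, at 8 to 89 reads per library.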
